A study of Mus musculus with 8 samples.

Results

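Small leucine-rich proteoglycans (SLRPs) were followed through single-cell RNA sequencing of the photothrombosis (PT) injury site of the mouse cortex. The members were the rows named Dcn, Bgn, Aspn, Lum, Fmod, Prelp, Omd and Ogn, and all 8 were found among the 21848 genes of each matrix. Control mice (Saline, n = 4) carried osmotic minipumps with saline, and fibrinogen-depleted mice (Ancrod, n = 4) carried pumps that gave 2.4 U ancrod, a snake venom enzyme that removes fibrinogen, at 2.0 mg per kg body weight per day. Pumps were placed 2 days before PT, and the injury site with its spared border was taken 6 days after PT, with the meninges removed and without sorting of cells. Every mouse, injured mice of both groups alike, gave 1 library. The sample labels call the mice female C57Bl/6J, while the methods of the study name C57BL/6N mice of both sexes. Replicates 1 to 3 of each group belonged to batch 1 and replicate 4 of each group to batch 2. No uninjured tissue is among the samples, so every level below is a level after injury.

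Libraries held 97861434 to 142139441 UMIs (unique molecular identifiers, each counting 1 captured transcript), with more in each Ancrod than in each Saline mouse. Droplets with at least 2000 UMIs and under 20% mitochondrial UMIs were kept as cells after removal of likely doublets, which left 4874 to 5962 cells per mouse at a median of 10412 to 17356 UMIs. Droplets with at most 100 UMIs, called empty droplets here, served as a record of RNA free in the suspension. Their CPM is the level in free RNA alone, which was a small part of the UMIs of cells (0.652% to 1.22% in microglia-like cells). A class level below that of empty droplets is therefore not by itself a level of free RNA. Any pair of libraries shared 3 to 14 barcodes among kept cells. The 1798 fibroblast-like cells numbered 196, 159, 32 and 176 in Saline mice 1 to 4 and 253, 84, 500 and 398 in Ancrod mice 1 to 4. They were named from 10 marker genes that hold no SLRP, all 10 of which were highest in that class and were found in 90.9% to 100% of its cells. Pericyte-like (1219) and smooth muscle-like cells (196) met 6 of 6 and 5 of 6 of their markers. A cluster of 364 cells led by Penk, which encodes proenkephalin, with Slc47a1, Igfbp6 and Ptgds among its leading genes, was left unnamed and is shown separately. Levels are CPM, the UMIs of a gene divided by all UMIs of the class in that mouse and multiplied by 1e6. The libraries count 3′ ends of transcripts, so CPM is not divided by gene length.

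SLRPs are secreted proteins with a core of leucine-rich repeats and, in most members, chains of chondroitin, dermatan or keratan sulfate. They bind fibrillar collagen and set the width and spacing of its fibrils, and several bind growth factors. Decorin (Dcn), biglycan (Bgn) and asporin (Aspn) form class I. Lumican (Lum), fibromodulin (Fmod), PRELP (Prelp) and osteomodulin (Omd) form class II, and osteoglycin (Ogn, also mimecan) belongs to class III. Decorin binds TGF-β, and biglycan released from matrix is a ligand of Toll-like receptors. In the brain, fibroblasts of the meninges and of the perivascular space are known sources of matrix proteoglycans.

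Several of the 8 genes are neighbours in the genome (GRCm39, the build of the files, with GENCODE genes). Dcn lies at chr10:97315275-97358155 and Lum at chr10:97400990-97408577, both on the plus strand and 42835 bases apart. Aspn (chr13:49697609-49721057), Omd (chr13:49735938-49746298) and Ogn (chr13:49761349-49780412) follow each other on the plus strand with 14881 and 15051 bases between them, inside the span of Cenpp, a centromere protein gene on the minus strand. Prelp (chr1:133837335-133857971, minus strand) and Fmod (chr1:133964992-133976015, plus strand) are 107021 bases apart, and Bgn stands alone at chrX:72527208-72539541 on the plus strand. Cell Ranger counts reads on the sense strand by default, so reads of Aspn, Omd and Ogn and of Cenpp should be told apart. How far they were was not tested, and the levels of these 3 genes are uncertain to that extent. Pooled over mice, Cenpp was at 64.0 CPM in pericyte-like and 10.9 CPM in smooth muscle-like cells. Fibroblast-like clusters held 9.61, 14.5 and, in dividing cells, 136 CPM. Beside 61.3 CPM of Cenpp, a cluster of 439 astrocyte-like cells held 2.87 CPM of Aspn, 2.23 CPM of Omd and 2.55 CPM of Ogn. Beside 71.6 CPM of Cenpp, 75 unnamed cells held 4.65, 3.72 and 3.72 CPM of these genes.

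The promoters of 5 members are shown, the chromosome 10 neighbours that shared fibroblast-like cells as their highest class, the chromosome 13 neighbours Omd and Ogn that were highest in pericyte-like cells, and Bgn, as the 150 bases before the annotated start of the canonical transcript, on the plus strand. Capitals mark GGAATG, the letters of the site of TEAD factors, in Dcn. In Ogn they mark TATAAA, the letters of a TATA box, with the reverse strand match that overlaps it. Whether this stretch works as a TATA box was not tested.
Dcn, chr10:97315125-97315274: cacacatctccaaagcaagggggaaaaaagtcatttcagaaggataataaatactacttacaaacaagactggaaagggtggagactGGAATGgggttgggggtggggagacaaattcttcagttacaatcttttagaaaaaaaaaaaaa
Lum, chr10:97400840-97400989: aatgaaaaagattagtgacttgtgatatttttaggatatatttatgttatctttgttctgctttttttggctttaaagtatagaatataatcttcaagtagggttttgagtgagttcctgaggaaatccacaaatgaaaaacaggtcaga
Omd, chr13:49735788-49735937: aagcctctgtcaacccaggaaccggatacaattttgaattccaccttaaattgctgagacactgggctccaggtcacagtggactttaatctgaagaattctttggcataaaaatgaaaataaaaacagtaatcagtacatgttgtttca
Ogn, chr13:49761199-49761348: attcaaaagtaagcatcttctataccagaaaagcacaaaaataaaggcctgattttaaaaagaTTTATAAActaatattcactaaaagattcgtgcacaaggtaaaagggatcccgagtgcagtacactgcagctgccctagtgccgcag
Bgn, chrX:72527058-72527207: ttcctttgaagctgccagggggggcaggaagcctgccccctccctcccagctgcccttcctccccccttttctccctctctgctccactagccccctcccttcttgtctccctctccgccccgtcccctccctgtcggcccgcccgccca

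These windows differed most in base composition. Dcn, Omd and Ogn had 38% G and C, Aspn (not shown, since its canonical start lies inside the span of the gene) 33.3% and Lum 29.3%, all below the 10th percentile (40%) of 21770 promoters of the same length, whereas Bgn had 69.3% against a median of 55.3%. GGAATG, searched on both strands, was in the Dcn window from 63 to 58 bases before the start and in 6.90% of all promoters. TATAAA was in the Ogn window from 85 to 80 bases before the start and in 7.29% of all promoters. TGANTCA, the site of AP-1 (3.61% of all promoters), and the CArG box of serum response factor (0.831%) were in none of the 8 windows. A match is a run of letters and was not linked to binding here.

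Dcn, Bgn and Lum were fibroblast genes at the injury site. Among the classes measured in all 8 mice, Aspn and Prelp were highest in mural cells, and Omd and Ogn in pericyte-like cells. The Penk-led cluster, which is not among these classes, held more Ogn. Fibroblast-like cells held 1978 ± 263 CPM of Dcn, 1374 ± 100.2 CPM of Bgn and 751 ± 109.6 CPM of Lum (SD, n = 8 mice). Pooled over mice, Dcn ranked 59th, Bgn 99th and Lum 181st of the 17772 genes with a UMI in these cells. The other 5 members were far lower there, from 89.0 ± 30.4 CPM for Ogn to 6.33 ± 2.36 CPM for Omd (SD, n = 8). Class differences come from clusters of the same cells and are given as description with no test. All SLRP genes were left out of the clustering.

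**Figure D1:**
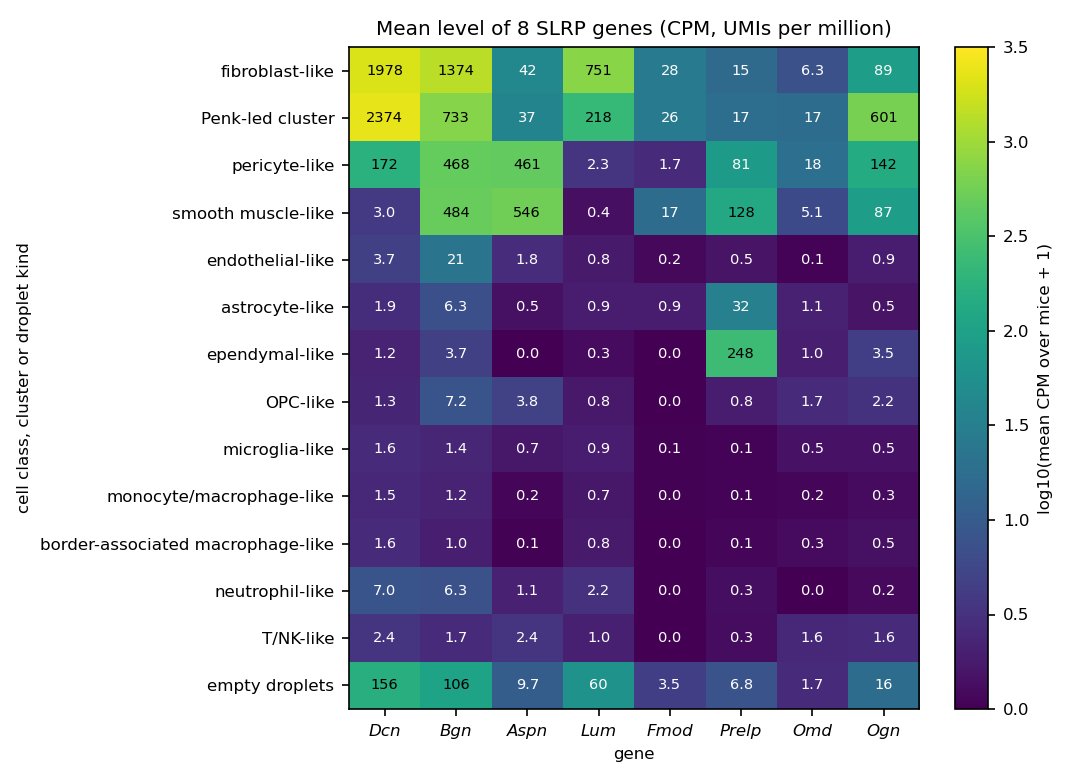
Mean CPM of each SLRP gene (columns) over mice with at least 10 cells, in each cell class, in the Penk-led cluster and in empty droplets (rows), with colour on a log10 scale of mean CPM + 1. Dcn, Bgn and Lum are highest in the fibroblast-like and Penk-led rows, Aspn in the pericyte-like and smooth muscle-like rows, and Prelp in the ependymal-like row.

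Among class I genes, Dcn, whose product decorates collagen I fibrils, ranged from 1507 to 2376 CPM in fibroblast-like cells of the 8 mice, against 80.7 to 279 CPM (mean 172 ± 59.5, SD) in pericyte-like cells. The ranges did not overlap, and no other named class measured in 8 mice passed a mean of 7.01 CPM. Smooth muscle-like cells had 7 Dcn UMIs in all, with 0 in 3 of 8 mice. Pericyte-like cells therefore stood apart from the other mural class in this gene. In 4 of 8 mice their Dcn level was above that of the empty droplets of the same mouse. Free RNA made up only 0.652% to 1.22% of the UMIs of microglia-like cells. A level below that of empty droplets is therefore not by itself free RNA. Microglia-like cells of the same mice held 0.450 to 3.13 CPM of Dcn. Pericyte-like cells held 1426 Dcn UMIs but 19 Lum UMIs, whereas empty droplets held 6447 Dcn and 2470 Lum UMIs and fibroblast-like cells 158235 and 61086. After thinning each cell to 2000 UMIs, Dcn was found in 86.1% of fibroblast-like, 17.6% of pericyte-like and 0.358% of microglia-like cells, which lack the gene (99.4%, 31.4% and 2.47% before thinning, at median depths of 42937.5, 5414 and 15393 UMIs).

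Relative to its mean, Bgn had the least spread between mice of the 8 genes in fibroblast-like cells, at 1261 to 1501 CPM. It was lower in both mural classes, at 484 ± 263 CPM in smooth muscle-like and 468 ± 95.0 CPM in pericyte-like cells (SD, n = 8), and these classes did not differ beyond their spread. Smooth muscle-like values ran from 192 to 1021 CPM and enclosed all pericyte-like values. Endothelial-like cells came next at 21.3 ± 12.5 CPM. Within them, the cluster of 490 cells led by Selp, which encodes P-selectin of venules, held 91.1 CPM of Bgn, against 3.47 to 14.3 CPM in the other endothelial-like clusters.

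Aspn, a collagen-binding SLRP with a run of aspartates in place of sugar chains, was a mural gene. It reached 546 ± 116 CPM in smooth muscle-like and 461 ± 77.4 CPM in pericyte-like cells (SD, n = 8), with overlapping ranges and the smooth muscle-like level higher in 6 of 8 mice. Fibroblast-like cells held 42.4 ± 42.6 CPM, below every pericyte-like value. Thinned to 2000 UMIs, 62.1% of smooth muscle-like, 51.2% of pericyte-like and 6.64% of fibroblast-like cells had an Aspn UMI, against 0.126% of microglia-like cells. A further 472 cells led by the pericyte genes Rgs5 and Vtn stayed unnamed and held 85.7 CPM of Aspn, pooled over mice.

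Class II genes fell into different classes of cells. Lum, a keratan sulfate SLRP known from the cornea, was far higher in fibroblast-like cells than in any other named class. Fibroblast-like cells held 601 to 878 CPM, and the next class, pericyte-like cells, 2.34 ± 2.16 CPM (SD, n = 8). In every pericyte-like and smooth muscle-like sample Lum lay below its level in the empty droplets of the same mouse. Fmod, which like lumican regulates collagen fibrils, was low throughout, at 27.8 ± 34.1 CPM in fibroblast-like and 16.5 ± 8.94 CPM in smooth muscle-like cells, with overlapping ranges and the fibroblast-like level higher in 5 of 8 mice. Without Ancrod 4 the means were 15.96 and 15.6 CPM (n = 7), so the lead of fibroblast-like cells in Fmod rested on that mouse.

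Prelp, a proline- and arginine-rich SLRP that anchors basement membranes to collagen, had the broadest pattern. Ependymal-like cells, which line the ventricles, held 274, 263 and 206 CPM in the 3 mice with at least 10 such cells, and the 87 cells in all were a small class. Smooth muscle-like cells held 128 ± 15.6 CPM, pericyte-like cells 81.0 ± 18.03 CPM, astrocyte-like cells 32.1 ± 7.78 CPM and fibroblast-like cells 14.99 ± 4.30 CPM (SD, n = 8). The smooth muscle-like level was above the pericyte-like level in 8 of 8 mice although the ranges overlapped, and both lower steps, to astrocyte-like and to fibroblast-like cells, were without overlap. Omd, known from bone matrix, rested on few UMIs, at 17.8 ± 6.16 CPM in pericyte-like cells (147 UMIs) and 6.33 ± 2.36 CPM in fibroblast-like cells, and was higher in pericyte-like cells in 8 of 8 mice. The Penk-led cluster held 20.5 and 19.0 CPM of Omd in Saline 1 and 4, and 10.6, 19.5, 15.4 and 14.1 CPM in Ancrod 1 to 4. These values lay in the pericyte-like range. Over all mice the cluster had 276 Omd UMIs.

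The class III gene Ogn stood at 142 ± 25.8 CPM in pericyte-like, 89.0 ± 30.4 CPM in fibroblast-like and 87.1 ± 39.0 CPM in smooth muscle-like cells (SD, n = 8). The pericyte-like level was above the fibroblast-like level in 8 of 8 mice, and the fibroblast-like and smooth muscle-like levels did not differ beyond their spread. Ogn was far higher in the Penk-led cluster, at 702, 666, 434, 545, 687 and 570.0 CPM in the 6 mice with at least 10 such cells (Saline 1 and 4, Ancrod 1 to 4). In the same mice that cluster held 2374 ± 591 CPM of Dcn, 733 ± 93.9 CPM of Bgn and 218 ± 80.2 CPM of Lum (SD, n = 6). Its Dcn overlapped the fibroblast-like range, and its Bgn and Lum lay below it. Thinned to 2000 UMIs, Ogn was found in 56.2% of Penk-led, 17.0% of pericyte-like, 13.5% of fibroblast-like and 0.109% of microglia-like cells.

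The chromosomal neighbours shared classes in part. Dcn and Lum were both highest in fibroblast-like cells, and so was Epyc, the epiphycan gene of the same chromosome 10 group (44.8 ± 21.2 CPM there and 0 UMIs in pericyte-like and smooth muscle-like cells). On chromosome 13, Ecm2 lies 9645 bases before Aspn. It held 411 CPM in pericyte-like, 56.9 CPM in smooth muscle-like and 16.2 ± 3.90 CPM in fibroblast-like cells. Ecm2 was thus highest in pericyte-like cells of these 3 classes, as Omd and Ogn were. The Penk-led cluster, outside the named classes, held 579 CPM of Ogn pooled over mice, against 141 CPM in pericyte-like cells. Its pooled Dcn was 2231 CPM, against 1917 CPM in fibroblast-like cells.

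Within a class, the share of each gene in the summed UMIs of the 8 members described their mixture. Other SLRP genes, such as Ecm2 and Epyc, were not counted in it. In fibroblast-like cells Dcn made up 46.1%, Bgn 32.2% and Lum 17.5% on average over 8 mice. In pericyte-like cells Bgn made up 34.9%, Aspn 34.3%, Dcn 12.6% and Ogn 10.6%, and in smooth muscle-like cells Aspn 44.6%, Bgn 36.4% and Prelp 10.5%. The mixture of empty droplets, 43.2% Dcn, 29.7% Bgn and 16.2% Lum, lay near that of fibroblast-like cells. Astrocyte-like (72.6%) and ependymal-like cells (96.4%, 5 mice) held mostly Prelp.

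Summed over 8 mice, fibroblast-like and Penk-led cells together held most UMIs of Dcn (77.5% and 19.9%), Bgn (81.2% and 10.1%) and Lum (91.2% and 6.78%). Over mice the fibroblast-like share was 60.8% to 91.3% for Dcn, 54.6% to 87.5% for Bgn and 87.9% to 97.6% for Lum. For Fmod they held 83.7% and 11.8%, but Ancrod 4 gave 2329 of the 3312 fibroblast-like UMIs. The fibroblast-like share of Fmod ranged from 43.2% to 92.8% over mice with a median of 63.9%, and was 68.0% pooled without Ancrod 4. For Ogn, the 364 Penk-led cells held 50.4% and the 1798 fibroblast-like cells 38.7%, with ranges over mice of 12.1% to 65.9% (median 43.5%) and 26.4% to 57.5% (median 31.8%) that overlapped. Aspn UMIs came from fibroblast-like (37.6%), pericyte-like (29.6%), unnamed (12.7%) and smooth muscle-like cells (10.5%). This order was set by Ancrod 4, without which pericyte-like cells held 40.5% and fibroblast-like cells 19.1%. The medians over mice were 44.0% for pericyte-like and 18.9% for fibroblast-like cells (5.69% to 75.1%), and pericyte-like cells held more in 5 of 8 mice. Prelp UMIs were held by astrocyte-like (32.8%), fibroblast-like (22.0%), pericyte-like (11.4%), ependymal-like (11.3%) and unnamed cells (9.90%). Astrocyte-like cells did not lead throughout, since fibroblast-like cells held more in 4 of 8 mice, and Ancrod 2 gave 532 of the 1857 astrocyte-like UMIs. Saline 4 gave 343 of the 639 ependymal-like UMIs of Prelp, and the ependymal-like share ran from 0% to 44.3% over mice with a median of 5.53%. Omd UMIs came from fibroblast-like (43.6%), Penk-led (19.8%), pericyte-like (10.5%) and microglia-like cells (10.1%). The medians over mice were 27.4%, 16.2%, 13.5% and 11.2%, and pericyte-like cells held more than fibroblast-like cells in 2 of 8 mice.

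**Figure D2:**
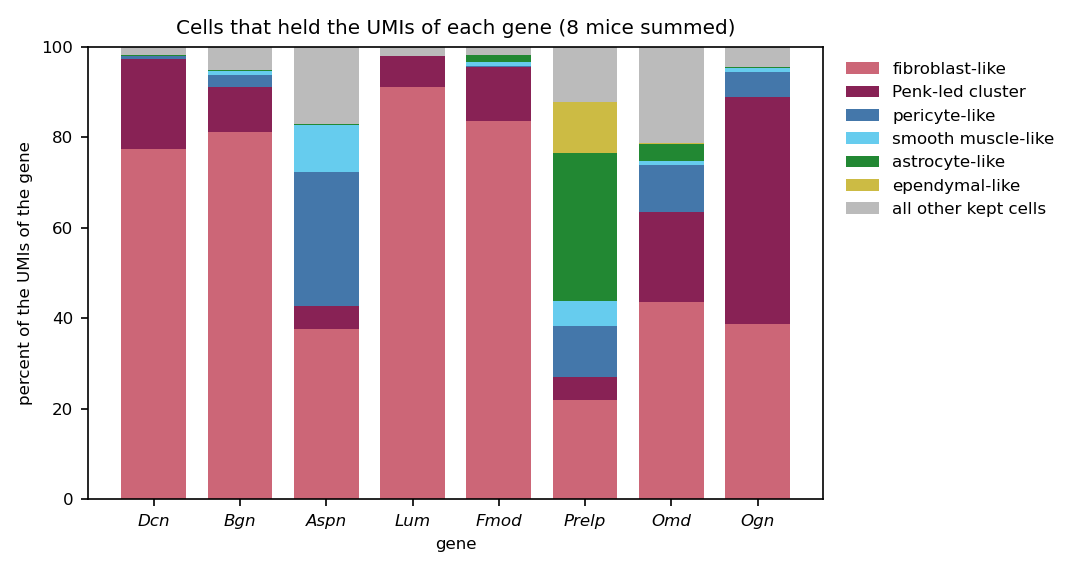
Percent of the UMIs of each SLRP gene (vertical axis) held by each class of kept cells, summed over 8 mice, as stacked bars. Fibroblast-like and Penk-led cells fill most of the bars of Dcn, Bgn, Lum and Fmod (for Fmod, 2329 of 3312 fibroblast-like UMIs are from Ancrod 4), the Penk-led cluster holds 50.4% of Ogn (12.1% to 65.9% over mice), and Aspn and Prelp are split among mural, fibroblast-like and, for Prelp, glial cells.

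Fibroblast-like cells were not uniform in their SLRPs. Clustered again without SLRP genes, they fell into 9 groups. Dcn and Lum were high together in the group of 346 cells led by Clec3b, Wnt4 and Slc6a13 (3541 and 1297 CPM pooled) and low together in the group of 243 cells led by Egr4, Aldh1a3 and Actg2 (909 and 366 CPM). Per mouse, Dcn was 3558 ± 567 CPM in the former (SD, 7 mice with at least 10 cells, 2578 to 4270 CPM) and 866 ± 268 CPM in the latter (SD, 5 mice, 578 to 1215 CPM). Dcn and Lum did not go together throughout. The 64 cells led by Sox6 and Acan, 63 of them from Ancrod 4, had the lowest Dcn (544 CPM) but 818 CPM of Lum. The 233 dividing cells, led by Ube2c and Nusap1, held 1280 CPM of Dcn. Bgn varied less, between 748 and 1791 CPM over all 9 groups.

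The less abundant members marked smaller groups. Levels here are pooled over mice unless stated. The 119 cells led by Trpm3 and Ptgds, genes known from arachnoid fibroblasts, held 336 CPM of Ogn, 46.8 CPM of Prelp and 28.7 CPM of Omd. They had little Aspn (3.41 CPM) and a summed level of the meningeal list of 3409 CPM. Over the 4 mice with at least 10 such cells, Ogn ran from 122 to 542 CPM. Prelp ran from 31.8 to 70.4 CPM and Omd from 13.6 to 48.8 CPM in these mice. The 40 cells led by Hsd11b1, Col13a1 and Abca8a held the highest Dcn (7220 CPM) and Prelp (235 CPM) with 0 Aspn UMIs. They came from 7 mice and had the lowest summed level of the 10 fibroblast markers (8482 CPM) and the highest of the 6 pericyte markers (1767 CPM) and of the meningeal list (8587 CPM). Among 64 cells led by Sox6 and Acan, which encode a cartilage transcription factor and aggrecan, Aspn reached 545 CPM, Fmod 303 CPM and Ogn 363 CPM, and 63 of these cells came from the mouse Ancrod 4. The 36 cells led by Inpp5d, Ly86 and F13a1, which are macrophage genes, had SLRP levels inside the range of the other groups.

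**Figure D3:**
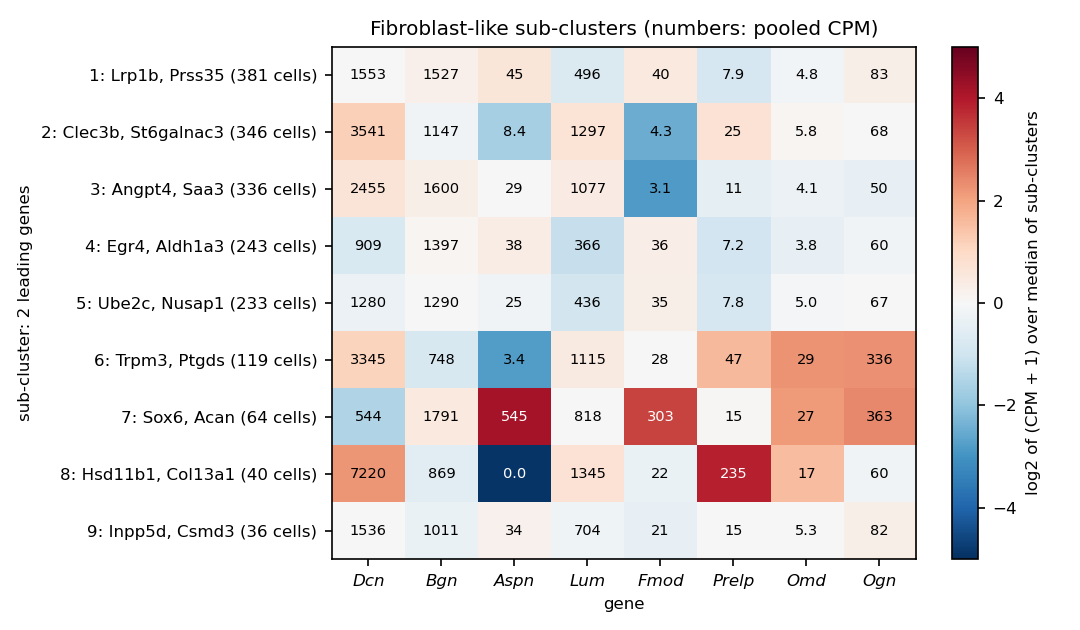
Pooled CPM (numbers) of each SLRP gene in the 9 groups of fibroblast-like cells, with the 2 leading genes and cell count of each group, and colour for the log2 difference of CPM + 1 from the median group. The group led by Sox6 and Acan is highest in Aspn, Fmod and Ogn, and that led by Hsd11b1 is highest in Dcn and Prelp.

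Ancrod did not move any of the 8 genes past the threshold in fibroblast-like cells. UMIs were summed per mouse and compared by the quasi-likelihood test of edgeR, adjusted after Benjamini and Hochberg over 12391 genes at a threshold of 0.05. Of all genes, 1 passed (0.00807%; 1928 at an unadjusted p below 0.05, and 189 with DESeq2), and of the 8 members 0. On the log2 scale 4 members were above and 4 below 0, with a median of 0.29 against -0.01 over all genes. In 1 of 8 members the groups did not overlap, against 7.34% of all genes.

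Dcn stood at 2376, 2029.6, 2022 and 1927 CPM in Saline mice 1 to 4 and at 1775, 1971, 2212 and 1507 CPM in Ancrod mice 1 to 4. The groups overlapped, with a log2 difference (Ancrod over Saline) of -0.16 ± 0.12 (SE, adjusted p = 0.538), which was -0.081 without Ancrod 4. Bgn stood at 1318, 1501, 1455 and 1261 CPM in Saline and at 1393, 1302, 1267 and 1495 CPM in Ancrod mice, a log2 difference of -0.01 ± 0.11 (SE, adjusted p = 0.977). For this gene the groups covered the same range.

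Lum stood at 878, 717, 830.2 and 865 CPM in Saline and at 619.8, 601, 811 and 687 CPM in Ancrod mice. Of the Ancrod mice, 3 lay below every Saline mouse and 1 among them, and the log2 difference was -0.27 ± 0.12 (SE, adjusted p = 0.319). Omd was the member without overlap, at 4.96, 3.28, 4.75 and 5.79 CPM in Saline and 8.77, 6.01, 6.39 and 10.7 CPM in Ancrod mice. Its log2 difference of 0.80 ± 0.26 (SE, adjusted p = 0.245) did not pass the threshold, and rested on 608 UMIs in all. Ogn stood at 63.9, 49.9, 89.1 and 84.7 CPM in Saline and 95.9, 99.7, 76.7 and 152 CPM in Ancrod mice, with 3 of 4 Ancrod mice above every Saline mouse (log2 difference 0.60 ± 0.24, SE, adjusted p = 0.290, and 0.34 without Ancrod 4).

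Aspn and Fmod had their largest value in the same mouse. Aspn stood at 21.0, 30.4, 38.0 and 18.6 CPM in Saline and at 28.2, 32.2, 24.6 and 147 CPM in Ancrod mice, and Fmod at 7.93, 23.1, 9.51 and 16.6 CPM in Saline and at 14.7, 25.01, 14.9 and 111 CPM in Ancrod mice. In both genes the groups overlapped apart from Ancrod 4. The log2 differences were 1.22 ± 0.60 for Aspn and 1.52 ± 0.70 for Fmod (SE, adjusted p = 0.355 and 0.324), and without Ancrod 4 they were 0.11 and 0.24. Ancrod 4 was the mouse that held the Sox6- and Acan-led group. Without those cells its fibroblast-like level was 40.2 CPM of Aspn, 58.6 CPM of Fmod, 94.0 CPM of Ogn and 6.26 CPM of Omd, and the log2 differences were 0.20, 0.93, 0.38 and 0.56. The part of batch 2 in this mouse's values was not tested, since each group had 1 mouse in that batch. Prelp ranged from 6.54 to 21.8 CPM in Saline and from 12.7 to 16.3 CPM in Ancrod mice (log2 difference -0.12 ± 0.23, SE, adjusted p = 0.83).

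**Figure D4:**
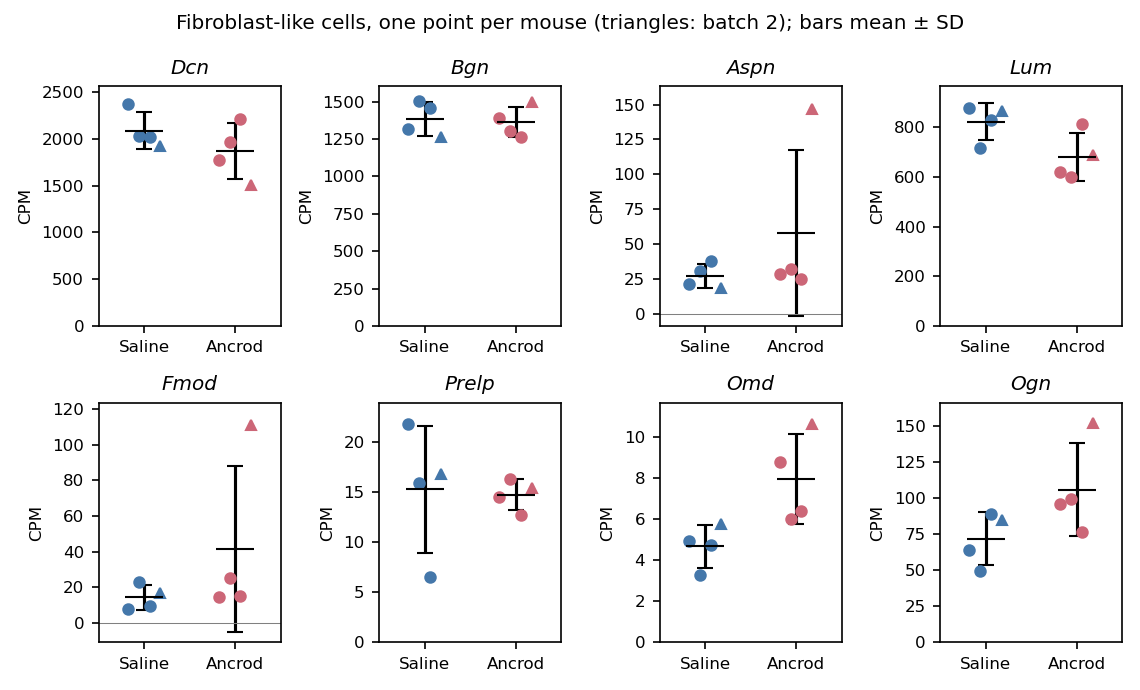
CPM of each SLRP gene in fibroblast-like cells, with 1 point per mouse (circles batch 1, triangles batch 2) and bars for the mean ± SD of each group. The groups overlap in all genes but Omd, and Ancrod 4 stands far above the other mice in Aspn (147 CPM) and Fmod (111 CPM).

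Markers of other cell types summed to far less than fibroblast markers in the fibroblast-like cells of both groups. The 10 fibroblast markers summed to 29463 to 37871 CPM in Saline and 24764 to 32122 CPM in Ancrod mice. The highest other sum was that of the 6 astrocyte markers, at 628 to 793 CPM and 558 to 762 CPM. The 6 pericyte markers summed to 176 to 333 CPM and to 135 to 217 CPM, the 6 endothelial markers to 156 to 193 CPM and 135 to 188 CPM, the 6 microglia markers to 164 to 281 CPM and 156 to 195 CPM, and the 6 smooth muscle markers to 11.6 to 29.7 CPM and 10.1 to 15.8 CPM. No marker of these lists was at 0 in either group. The 5 neutrophil markers reached 148 CPM in 1 Ancrod mouse, above the 1.78 to 11.3 CPM of Saline mice. Their part in the levels above was not tested.

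In pericyte-like cells 6 members could be tested and 0 passed, as did 0 of all 8950 genes (0%; 890 at an unadjusted p below 0.05, and 76 with DESeq2). The groups overlapped in all 6, against 5.72% of all genes without overlap, and the median of the members was 0.04 against -0.00 over all genes. Dcn was at 155, 129.7, 215 and 80.7 CPM in Saline and 148, 279, 194 and 173 CPM in Ancrod mice, a log2 difference of 0.52 ± 0.23 (SE, adjusted p = 0.460) that was 0.30 without Ancrod 2 and 0.32 without Saline 4. Omd was at 30.3, 20.5, 13.1 and 19.6 CPM in Saline and 9.72, 18.03, 15.1 and 15.7 CPM in Ancrod mice (log2 difference -0.46 ± 0.29, SE, adjusted p = 0.654), and the difference was -0.20 without Saline 1. The 6 pericyte markers of these cells summed to 20309 to 22800.4 CPM in Saline and to 14818 to 19916 CPM in Ancrod mice, without overlap. The fibroblast markers summed to 937 to 1219 CPM and 1072 to 1509 CPM, and the monocyte or macrophage markers to 9.23 to 30.3 CPM and 29.9 to 48.6 CPM. Astrocyte markers summed to 27.4 to 181 CPM and 139 to 263 CPM, and neutrophil markers to 8.78 to 34.3 CPM and 1.16 to 284 CPM. The part of these in the values above was not tested.

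The step from pericyte-like to fibroblast-like cells was compared between groups as a log2 difference of CPM + 1 per mouse. It was 3.92 in Saline and 3.25 in Ancrod mice for Dcn, a difference of -0.67 (two-sided exact permutation test over 70 arrangements, p = 0.0857, adjusted over 6 genes 0.257). For Omd it was -1.91 and -0.80, a difference of 1.10 (exact permutation p = 0.0571, adjusted 0.257). None of the 6 genes passed. The smallest p the design allows is 0.0286, which adjusts to 0.171 for a gene that reaches it alone, so no gene could have passed by itself.

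Smooth muscle-like cells, at 18 to 37 per mouse, allowed 4 members to be tested. None passed, as 0 of all 4647 genes did (0%; 290 at an unadjusted p below 0.05, and 1 with DESeq2), and none was without overlap, against 3.62% of all genes. Bgn was at 381, 302, 623 and 284 CPM in Saline and 1021, 192, 495 and 576 CPM in Ancrod mice (log2 difference 0.54 ± 0.37, SE, adjusted p = 0.83, with 0.10 without Ancrod 1 and 0.86 without Saline 3). Aspn was at 712, 628, 463 and 563 CPM in Saline and 484, 608, 576 and 336 CPM in Ancrod mice (log2 difference -0.22 ± 0.18, SE, adjusted p = 0.861, and -0.078 without Ancrod 4). Markers of several other cell types reached higher highest sums in Ancrod than in Saline mice in these cells, with 455 to 1123 CPM against 390 to 742 CPM for fibroblast, 34.8 to 183 CPM against 22.2 to 93.7 CPM for astrocyte, 15.3 to 570 CPM against 3.71 to 31.7 CPM for endothelial, 124 to 611 CPM against 114 to 193 CPM for microglia, 0 to 107 CPM against 0 to 9.63 CPM for monocyte or macrophage and 0 to 225 CPM against 0 to 9.07 CPM for neuron markers. Their part in the values was not tested.

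In endothelial-like cells 5 members were tested, 0 passed, and 0 of all 12673 genes passed in edgeR (0%; 953 at an unadjusted p below 0.05, and 15 with DESeq2). Dcn and Ogn were without overlap, against 3.65% of all genes. Dcn was at 2.34, 1.76, 1.70 and 2.86 CPM in Saline and 6.59, 4.21, 5.14 and 4.81 CPM in Ancrod mice, a log2 difference of 1.27 ± 0.23 (SE, adjusted p = 0.645 in edgeR and 0.00967 in DESeq2). Ogn was at 0.311 to 0.619 CPM in Saline and 1.03 to 1.89 CPM in Ancrod mice (log2 difference 1.65 ± 0.34, SE, adjusted p = 0.645 in edgeR and 0.206 in DESeq2).

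These endothelial-like levels lay below those of the empty droplets (31.0 to 279 CPM of Dcn). Microglia-like cells of the same mice, which lack Dcn, held 1.22, 0.460, 0.450 and 1.59 CPM of Dcn in Saline and 2.08, 1.68, 2.52 and 3.13 CPM in Ancrod mice. The 10 fibroblast markers summed to 56.8 to 82.3 CPM in endothelial-like cells of Saline and 41.3 to 157 CPM in those of Ancrod mice. Free RNA, estimated from Col1a1, Col1a2 and Col3a1, which microglia lack, made up 0.652% to 1.22% of the UMIs of microglia-like cells. With that RNA subtracted the Dcn difference in endothelial-like cells was 1.30 (adjusted p = 0.659 in edgeR), and the part of droplets that held a fibroblast besides was not tested.

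A level over all kept cells of a mouse combines the number of producing cells with the level in each, which was given by class above. All 8 members were above 0 on the log2 scale and 0 passed, where 2 of 16186 genes did (0.0124%; 2696 at an unadjusted p below 0.05, and 821 with DESeq2). The median of the members was 1.04 against -0.00 over all genes. None was without overlap, against 9.17% of all genes. Dcn stood at 221, 159, 44.0 and 219 CPM in Saline and 253, 175, 555 and 365 CPM in Ancrod mice (log2 difference 1.07 ± 0.52, SE, adjusted p = 0.332, and 0.71 without Ancrod 3). Bgn stood at 125, 123, 43.4 and 139.7 CPM in Saline and 187, 101, 298 and 337 CPM in Ancrod mice (log2 difference 1.09 ± 0.45, SE, adjusted p = 0.284). In both genes Saline 3 was lowest, and Ancrod 3 and Ancrod 4 were highest.

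The other members over all kept cells ranged from Prelp, with a log2 difference of 0.16 ± 0.37, to Fmod, with 2.51 ± 0.94 (SE). Fmod was at 1.04, 1.78, 0.359 and 2.41 CPM in Saline and 2.08, 2.24, 4.26 and 23.6 CPM in Ancrod mice, and passed in DESeq2 (adjusted p = 0.0482) but not in edgeR (0.255). Without Ancrod 4 its difference was 1.02. Ogn stood at 15.1, 7.41, 4.88 and 27.1 CPM in Saline and 26.0, 19.7, 49.7 and 52.1 CPM in Ancrod mice (log2 difference 1.44 ± 0.55, SE, adjusted p = 0.265).

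The share of fibroblast-like cells is given beside these levels, and its part in them was not tested. Within these cells the log2 differences were -0.16 for Dcn and -0.01 for Bgn. Fibroblast-like cells made up 3.58%, 2.99%, 0.537% and 3.32% of kept cells in Saline and 4.49%, 1.49%, 8.52% and 8.17% in Ancrod mice. The means were 2.61% ± 1.40 and 5.67% ± 3.33 (SD, n = 4), a difference of 3.06 points that did not pass a two-sided exact permutation test (p = 0.2). The groups overlapped, since Ancrod 2 lay below 3 Saline mice. In batch 1 alone the difference was 2.47 points (exact permutation p = 0.4, where 3 against 3 mice allow no p below 0.1), and batch 2, with 1 mouse per group, allowed no test. Penk-led cells were 0.292%, 0.150%, 0.117% and 0.885% in Saline and 1.12%, 0.568%, 1.93% and 1.60% in Ancrod mice. A share also depends on how many other cells were captured. The study saw proportions of reactive fibroblasts trend higher in fibrinogen-depleted animals, and held easier dissociation of less fibrotic tissue the likely reason. On tissue sections 6 days after PT it reports fewer activated perivascular fibroblasts in the lesion core of such mice. The share among captured cells is therefore not a count of cells in the tissue.

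In empty droplets, where more producing cells and more RNA per cell cannot be told apart, Saline 3 was lowest and Ancrod 3 and 4 highest in Dcn and Bgn. Dcn stood at 129, 76.2, 31.0 and 164 CPM in Saline and 193, 112, 279 and 265 CPM in Ancrod mice (log2 difference 1.12 ± 0.42, SE, adjusted p = 0.501), and Bgn at 72.6, 65.4, 26.9 and 106 CPM and 119, 64.4, 168 and 230.1 CPM (log2 difference 1.10 ± 0.39, SE, adjusted p = 0.499). Of 7 members tested 7 were above 0 and 0 passed, with 0 of all 13200 genes (0%; 1142 at an unadjusted p below 0.05, and 17 with DESeq2). None was without overlap, against 3.46% of all genes, and the median of the members was 0.98 against 0.01. Empty droplets and kept cells of a mouse come from the same suspension and are not independent of each other.

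**Figure D5:**
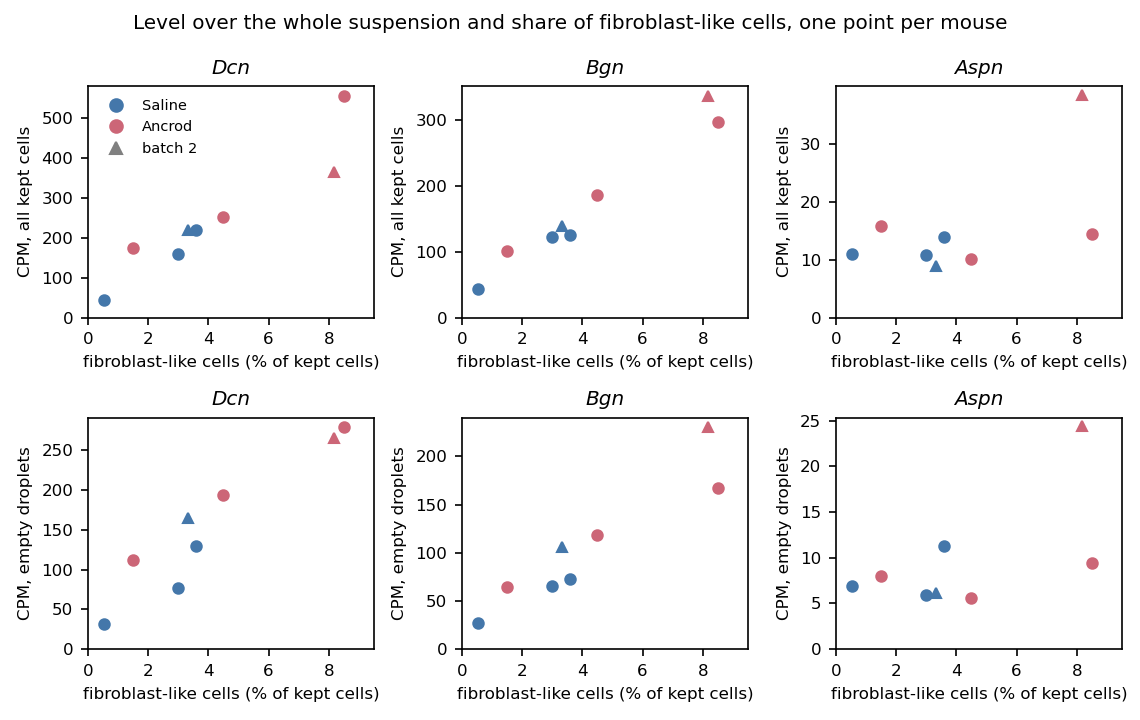
CPM of Dcn, Bgn and Aspn over all kept cells (upper row) and in empty droplets (lower row) against the percent of fibroblast-like cells, with 1 point per mouse (triangles batch 2). Mice with more fibroblast-like cells broadly have more Dcn and Bgn in both rows. In the upper row Dcn runs from 44.0 CPM in Saline 3, with 0.537% of fibroblast-like cells, to 555 CPM in Ancrod 3, with 8.52%. Aspn is far higher in Ancrod 4 than in the other mice. Fibroblast-like cells are part of the kept cells and held most of these UMIs (77.5% of Dcn, 81.2% of Bgn). The upper row therefore follows the share in part by construction, and no cause was tested.

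Genes related to SLRPs by family, binding or synthesis, with genes of dividing cells and of meningeal fibroblasts, were read from 8 lists in the same fibroblast-like cells, and 0 of the listed genes passed the threshold. Of the 10 collagen genes, of fibrillar, fibril-associated and type VI collagens, 4 were above and 6 below 0, with a median log2 difference of -0.03. Col1a1 and Col1a2, the chains of collagen I that decorin binds, led the list at 11639 ± 1748 and 8041 ± 809 CPM (SD, n = 8), with differences of -0.12 ± 0.16 and -0.01 ± 0.13 (SE). Of the 18 genes that build chondroitin and dermatan sulfate chains, 5 were above and 13 below 0 (median -0.08). The highest were the sulfotransferase Ust (183 ± 14.2 CPM) and the synthase Chsy3 (126 ± 20.7 CPM). Of the 6 genes of keratan sulfate chains, 4 could be tested, with 3 above and 1 below 0 (median 0.13), led by B4galt1 (109 ± 16.6 CPM) and Chst2 (96.0 ± 13.8 CPM).

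Matrix-processing enzymes were led by Mmp14 (779 ± 126 CPM), a membrane-bound metalloproteinase, and Lox (374 ± 56.8 CPM), which crosslinks collagen (SD, n = 8). Of 9 tested, 3 were above and 6 below 0 (median -0.15). Over all 8 lists, 4 of 71 tested genes (5.63%) were without overlap, namely Col3a1, Xylt2, Tll1 and Kdr, against 7.34% of all genes. Of these, named after their values were seen, Tll1, a metalloproteinase gene of procollagen processing, stood at means of 299 CPM in Saline and 164 CPM in Ancrod mice (log2 difference -0.86 ± 0.17, SE, edgeR adjusted p = 0.144). Of the 13 receptors and ligands that decorin or biglycan bind, 7 were above and 6 below 0 (median 0.05), led by Lrp1 (422 ± 81.8 CPM), an endocytic receptor of decorin, and Egfr (318 ± 71.0 CPM). Of the other SLRP genes, 6 of 11 could be tested, with 2 above and 4 below 0 (median -0.14). All 5 genes of dividing cells were above 0 (median 0.54), led by Top2a (99.1 ± 42.0 CPM) and Cdk1 (72.8 ± 30.7 CPM). Of the 6 genes of meningeal fibroblasts, 2 were above and 4 below 0 (median -0.10), led by Ptgds, at 5.35 to 594 CPM over mice, and Aldh1a2 (148 ± 28.4 CPM).

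The genes whose levels over 14 classes followed each member most closely were found from Pearson's r of mean log2(CPM + 1), a description over classes that share libraries. Lum was followed by Reg3g, Cpz and Mmp10 (r = 0.995 for Reg3g), at 11.9 to 20.0 CPM in fibroblast-like cells, and Dcn by Igf2, Srpx2 and Spon2 (0.981 for Igf2). Bgn was followed by Mgp, the matrix Gla protein gene (r = 0.977), which also stood high in the mural classes, and by Zic1 and Pcolce. Aspn was followed by the mural transcription factor gene Foxs1 (0.988), Irag1 and C1qtnf7. Fmod was followed by Foxc2 (0.980), Lox and Adamts15. Prelp was followed by Rarres2 (0.988), Serping1 and Ccdc3, Omd by Mnd1 (0.968), Bmp5 and Zic4, and Ogn by Tfap2a (0.985) and Zic4.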

How the data were processed

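Single-cell 3′ libraries (10x v3.1) were processed by the authors with Cell Ranger 7.1.0 and STAR to GRCm39, with exonic and intronic reads, and deposited as raw UMI counts for every droplet, without normalization. Replicates are separate mice. Doublets were scored with Scrublet and the highest scores removed at 0.8% per 1000 cells. Cells were clustered with Leiden at resolution 2 (3000 variable genes without SLRPs, 20 principal components, scanpy 1.11.5). Clusters were named from fixed markers, and thresholds for leaving a cluster unnamed (14 of 52) were set after the clusters were seen. UMIs were summed per mouse and class, filtered with filterByExpr, scaled with TMM and tested with edgeR 4.0.16 (DESeq2 1.42.0 as alternative). The test was checked on counts simulated with the same dispersion for every gene and no batch or outlying mouse. That check does not measure what the test can find in genes with a wider spread between mice. Members and lists were chosen with earlier results of these data known. Genes named beside the members are the 2 highest of each list in fibroblast-like cells, the 3 most like each member over classes (1 is not reported here) and the 5 leading genes of sub-clusters. P-values measure the spread between mice. Alternatives covered DESeq2, low-count filters, depth, doublets, resolution, free RNA, batch and each mouse left out.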

Additional observations from a re-analysis of the deposited data

Results flagged for a closer look

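In 8 of 78 groups of 4 mice, 1 mouse stood apart from the other 3 by Dixon's test at the 95% level, which chance alone gives in about 1 in 20 groups. Ancrod 4 accounted for 5 of these. In fibroblast-like cells it held 147 CPM of Aspn, where the other Ancrod mice held 24.6 to 32.2, and 111 CPM of Fmod, where the others held 14.7 to 25.01. Over all kept cells it held 23.6 CPM of Fmod against 2.08 to 4.26, in empty droplets 3.98 CPM of Omd against 1.69 to 1.82, and in pericyte-like cells 192 CPM of Ogn against 125 to 133. In pericyte-like cells Saline 3 held 591 CPM of Aspn against 416 to 445 and 105 CPM of Prelp against 74.2 to 78.0. Ancrod 1 held 326 CPM of Aspn in pericyte-like cells, below the 481 to 510.2 of the other Ancrod mice.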

How the results depend on the processing

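Of 618 values of single members under alternatives, 586 kept their direction and side of the threshold, 2 passed under DESeq2 (Dcn in endothelial-like and Fmod over all kept cells, given in the report) and 30 changed sign, where the cause was not tested. Outside of left-out mice the log2 differences with a changed sign were, for Bgn in fibroblast-like cells, 0.0073 without a filter on low counts and 0.0036 with free RNA subtracted, for Aspn in batch 1 alone -0.051 in fibroblast-like cells, -0.0069 in endothelial-like cells and -0.055 in empty droplets, for Ogn in pericyte-like cells -0.11 in batch 1 alone and -0.038 in cells with at least 5000 UMIs, for Aspn in pericyte-like cells 0.0087 without doublet removal, and for Prelp in smooth muscle-like cells 0.020 in cells with at least 5000 UMIs. With 1 mouse left out, ranges that crossed 0 were, in fibroblast-like cells, Bgn -0.078 to 0.051 and Prelp -0.28 to 0.067, in pericyte-like cells, Bgn -0.082 to 0.29, Aspn -0.066 to 0.12, Prelp -0.16 to 0.079 and Ogn -0.055 to 0.18, in smooth muscle-like cells, Prelp -0.080 to 0.076 and Ogn -0.20 to 0.56, and for Prelp -0.089 to 0.41 over all kept cells and -0.24 to 0.22 in empty droplets. The fibroblast-like share kept its direction, at 2.11 to 4.45 points without 1 mouse, and 4 members were highest in fibroblast-like cells by level, after thinning and, in an alternative chosen after seeing the data, without any 1 mouse, though for Fmod by 15.96 against 15.6 CPM in smooth muscle-like cells without Ancrod 4.

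Counts of all genes past the threshold moved more. In fibroblast-like cells (1 in the report) they were 189 with DESeq2, 5 without a filter on low counts, 4 in batch 1 alone, 2 with batch as a term, 1 to 2 with 1 mouse left out and, in alternatives chosen after seeing the data, 2 without the Sox6- and Acan-led group and 1 with the Penk-led cluster. In pericyte-like cells (0) they were 76 with DESeq2, 163 without a filter, 8 in batch 1 alone, 34 with batch as a term, 25 without doublet removal and 0 to 23 with 1 mouse left out. They were 1 with DESeq2 and 73 without a filter in smooth muscle-like cells, 15 with DESeq2 in endothelial-like cells, and 17 with DESeq2, 4 in batch 1 alone, 3 with batch as a term and 0 to 3 with 1 mouse left out in empty droplets. Over all kept cells (2) they were 821 with DESeq2, 0 to 1 with 1 mouse left out and 0 without a filter, with batch as a term and in batch 1 alone. With the replicate block they were 5 in fibroblast-like cells, 55 in pericyte-like cells and 0 over all kept cells, and no member passed. Numbers 1 to 3 marked no batch of their own, while the mice of number 4 shared batch 2. Deviations of same-numbered mice correlated at -0.15 to 0.077 in fibroblast-like cells, and above 0.1 in endothelial-like cells and empty droplets for number 4 (0.196 and 0.465) and over all kept cells for numbers 3 and 4 (0.132 and 0.252).

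By UMIs in fibroblast-like cells, depth limits Omd (608) and Prelp (1244) most. Fmod is also limited, since Ancrod 4 gave 2329 of its 3312 UMIs there. The smooth muscle-like class rests on 196 cells. Ancrod libraries were all deeper than Saline libraries.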

Other observations

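Outside the vessel and fibroblast classes, a cluster of 343 dividing cells led by H1f5, Pclaf and Mki67 held, pooled over mice, 2.21 CPM of Aspn, 2.21 CPM of Omd and 2.14 CPM of Ogn, the 3 members that lie inside Cenpp, beside 109 CPM of Cenpp, while Dcn was at 1.38 CPM and Lum at 0.415 CPM. Microglia-like cells held 10.1% of all Omd UMIs in kept cells (3.60% to 31.9% over mice), at 0.283 to 0.654 CPM per mouse. This was below the level of the empty droplets in all mice but Saline 3. Free RNA made up only 0.652% to 1.22% of the UMIs of these cells, so such a level is not by itself free RNA. The source of these UMIs was not tested. The smaller Myoc-led cluster of astrocyte-like cells held 15.4 CPM of Bgn, against 2.86 to 6.26 CPM in the 4 other astrocyte-like clusters. The 153 cells of a shallow cluster that scored as fibroblasts (median 4430 UMIs) held 1545 CPM of Dcn, 1274 CPM of Bgn and 703 CPM of Lum, pooled over mice.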
